A study of Mus musculus with 24 samples.

Results

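Inguinal mammary glands of non-lactating mice were compared between the genotypes BL/6 NZB and BL/6 C57, with 3 NZB mice and 3 C57 mice, 6 of the 24 samples of the series. The samples were chosen by genotype and stage as their titles give them. Glands had been flash frozen, and polyadenylated RNA was sequenced. Both groups were on a BL/6 background, and neither carried a treatment, transgene or deletion in the labels, which give no ages and no breeding history. The title of the series names organelles and lactation-induced stress, and the non-lactating glands serve here as the baseline of each genotype. They are described below as glands before lactation, although their titles say only that the mice were not lactating. A further 12 samples, taken on lactation days 8 and 14 from other mice of both genotypes, were used to ask which differences were also measured there.

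The names NZB and C57 on a BL/6 background are used for mice whose nuclear genomes are meant to be alike and whose mitochondrial DNA comes from NZB or from C57 mice. Mitochondrial DNA is inherited from the mother and encodes core subunits of respiratory complexes I, III, IV and V, while the nucleus encodes the rest. Nuclear chromosomes also hold old copies of stretches of mitochondrial DNA, so that a short read from a mitochondrial transcript can match a nuclear copy as well as, or better than, the reference mitochondrial genome. The gland of a non-lactating mouse is a thin tree of ducts in a fat pad. Its ducts have an inner layer of luminal cells, some hormone-sensing and some able to become secretory, and an outer layer of contractile basal cells. The inguinal fat pad also holds a lymph node and lies close to body-wall muscle.

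The label of C57 mouse 3 is in doubt: it is called C57 in its title and in its column name but NZB in its genotype tag. It was kept as C57, and its values of the nuclear copies Gm29216, Gm13340 and Gm11410, given below, lay with those of C57 mice 1 and 2. Depth is the number of gene-assigned reads, in units of 1000000, as the mean of the paired read files of a mouse. NZB mice 1, 2 and 3 had 13.45, 12.39 and 9.92, and C57 mice 1, 2 and 3 had 14.55, 7.03 and 15.88. The files of C57 mouse 2 were unequal, with 2.17 in the first and 11.89 in the second, and it is the shallowest gland. Values are counts per 1000000 reads (CPM), and differences are NZB less C57 on the log2(CPM + 1) scale, which understates the change of genes with low values. Without C57 mouse 3 the limma test described next called 4 genes higher and 3 lower in NZB, against 4 and 2 with it, and the median differences of gene lists were -1.99 for the basal list, -1.74 for the hormone-sensing list, -1.62 for the luminal secretory list, 0.88 for the milk protein list and -0.31 for the mitochondrially encoded mRNAs, against -1.77, -1.59, -1.34, 1.03 and -0.45 with it. The median SD within a group was 0.4 (log2) in NZB and 0.27 in C57, so that NZB glands varied more among themselves. NZB mouse 3 stood apart by its lymphocyte and muscle genes. Tissue from bulk glands cannot tell fewer cells of a type from less RNA per cell, and this holds for every cell type list that follows.

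Few single genes separated the genotypes before lactation once the spread between mice was considered. Of 15524 genes tested with limma, 4 rose in NZB glands (0.0258%) and 2 fell (0.0129%) at a Benjamini-Hochberg adjusted p under 0.05. Of these 6 genes (0.0386%), 5 are nuclear copies of mitochondrial genes, and the sixth is the heavy-chain gene of an antibody class. A wider description counts genes whose 3 NZB values all lay on one side of the 3 C57 values and whose group means differed by at least 2-fold on the log2(CPM + 1) scale, a limit on the means and not on each mouse. By that count 244 genes were higher in NZB (1.57% of those tested) and 607 were lower (3.91%). These counts moved with single mice: 1158 genes were higher without NZB mouse 1, 380 without C57 mouse 1 and 372 without C57 mouse 2. At an unadjusted p under 0.05 there were 1750 genes, 11.3% of those tested, and the median difference of all genes was 0.08. Without NZB mouse 1 the same test called 304 genes higher and 26 lower, whereas leaving out NZB mouse 2 or 3 gave 4 and 2, and without C57 mouse 1 or C57 mouse 2 it called 1 lower gene, Gm29216.

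The nuclear copies carry the clearest difference, and a short stretch of 2 mitochondrial genes is printed beside some of the copies. The sequences are from the GRCm38 reference, read 5′ to 3′ on the strand of the mitochondrial gene, with capitals at bases that differ from the mitochondrial gene above. The first 3 cover bases 1121 to 1180 of mt-Co1, which encodes the catalytic subunit of cytochrome c oxidase, at chrM:6448-6507 on the plus strand. They lie in Gm29216 at chr1:24616071-24616130 on the minus strand and in Gm13340 at chr2:22588468-22588527 on the minus strand.
mt-Co1: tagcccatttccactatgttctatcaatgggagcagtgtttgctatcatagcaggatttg
Gm29216: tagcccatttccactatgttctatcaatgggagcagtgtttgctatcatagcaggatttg
Gm13340: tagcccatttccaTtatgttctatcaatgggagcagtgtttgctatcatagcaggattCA
The next 2 cover bases 826 to 885 of mt-Cytb, which encodes cytochrome b of complex III, at chrM:14970-15029 on the plus strand and in Gm11410 at chr4:80004814-80004873 on the plus strand.
mt-Cytb: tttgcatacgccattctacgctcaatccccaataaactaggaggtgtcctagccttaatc
Gm11410: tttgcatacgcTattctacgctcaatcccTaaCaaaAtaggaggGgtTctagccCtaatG
In these windows Gm29216 is identical to the reference mt-Co1, whereas Gm13340 carries 3 substitutions and Gm11410 carries 8. Each window was chosen for the most substitutions, of Gm13340 in mt-Co1 and of Gm11410 in mt-Cytb. The mt-Co1 window was sought only past base 1066, where Gm29216 has its mismatch. The contrast in these windows follows from that choice, and identities over all aligned bases are given below. The reference mitochondrial genome is of the C57 type, and the sequence of NZB mitochondrial DNA was not used here.

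Gm29216 (chr1:24615706-24616197, minus strand) is annotated as an unprocessed pseudogene and matches mt-Co1 over 483 bases at 99.8% identity. It was at 0, 0 and 0 CPM in NZB mice 1, 2 and 3, against 2925.89, 1713.91 and 3591.28 CPM in C57 mice 1, 2 and 3. All NZB glands were at 0 and all C57 glands, the one with the contradictory tag included, were above 1700 CPM. The fitted difference was -11.36 ± 0.29 (SE, 3 mice a group; limma adjusted p = 9.06e-06), and against a floor of 3 reads in each NZB library the level was at least 10723-fold lower in NZB. Gm28437 (chr1:24613189-24613971, minus strand) copies mt-Co3, a gene of the same enzyme, with 100% identity over 783 bases. It had 36.8, 34.92 and 19.38 CPM in NZB mice and 410.35, 706.1 and 408.25 CPM in C57 mice. It fell by 4.02 on the log2 scale (SE 0.33; limma adjusted p = 0.00818), without overlap, and its adjusted p was 0.0506 without C57 mouse 1 and 0.0711 without C57 mouse 2, within a range of 1.04e-07 to 0.0711 over all alternatives.

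The copies that rose in NZB glands are those with the lowest identity to the reference mitochondrial gene. Gm13340 (chr2:22588103-22589647, minus strand) spans all 1545 bases of mt-Co1 with 37 mismatches, an identity of 97.6%. It had 694.38, 694.64 and 437.45 CPM in NZB mice and 2.3, 2.68 and 1.89 CPM in C57 mice. Its difference of 7.51 ± 0.25 (SE, 3 mice a group; limma adjusted p = 3.2e-05) was the largest among the genes that rose. Gm11410 (chr4:80003989-80005131, plus strand), a processed pseudogene that copies mt-Cytb at 92.9% identity, had 235.79, 228.84 and 115.57 CPM in NZB mice and 0.86, 0.25 and 0.38 CPM in C57 mice. It rose by 6.97 (SE 0.34; limma adjusted p = 0.000403), and it was named after its values were seen. Gm13339 (chr2:22590024-22590533, minus strand) copies 510 bases of mt-Nd2, a complex I subunit gene, at 96.7% identity. NZB mice had 21.83, 15.94 and 13.05 CPM of it and C57 mice 0.03, 0.04 and 0.03 CPM, a difference of 4.08 (SE 0.27; limma adjusted p = 0.0022). In each of these 3 genes every NZB gland was far above every C57 gland, and NZB mouse 3 was the lowest of the NZB glands.

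The rest of the copied block on chromosome 1 did not follow one pattern. Gm28438, a copy of mt-Nd3 with 100% identity over 342 bases, had 362.69, 375.68 and 175.84 CPM in NZB mice and 144.46, 208.66 and 137.64 CPM in C57 mice, which overlap. Gm28661, which matches mt-Co2 with 100% identity over 681 bases, had 7423.22, 8263.93 and 4260.41 CPM in NZB mice and 9396.54, 8288.49 and 11433.27 CPM in C57 mice. The C57 glands were all above the NZB glands, by a small margin in C57 mouse 2. Gm28439, a copy of the first 876 bases of mt-Nd4, was at 449.48 CPM in C57 mouse 2 and at 0 CPM in the other 5 glands. Because these copies are nearly or wholly identical to mitochondrial genes, how the authors' counting divided reads between them and the mitochondrial genes is uncertain, and which of them was transcribed was not tested.

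**Figure D1:**
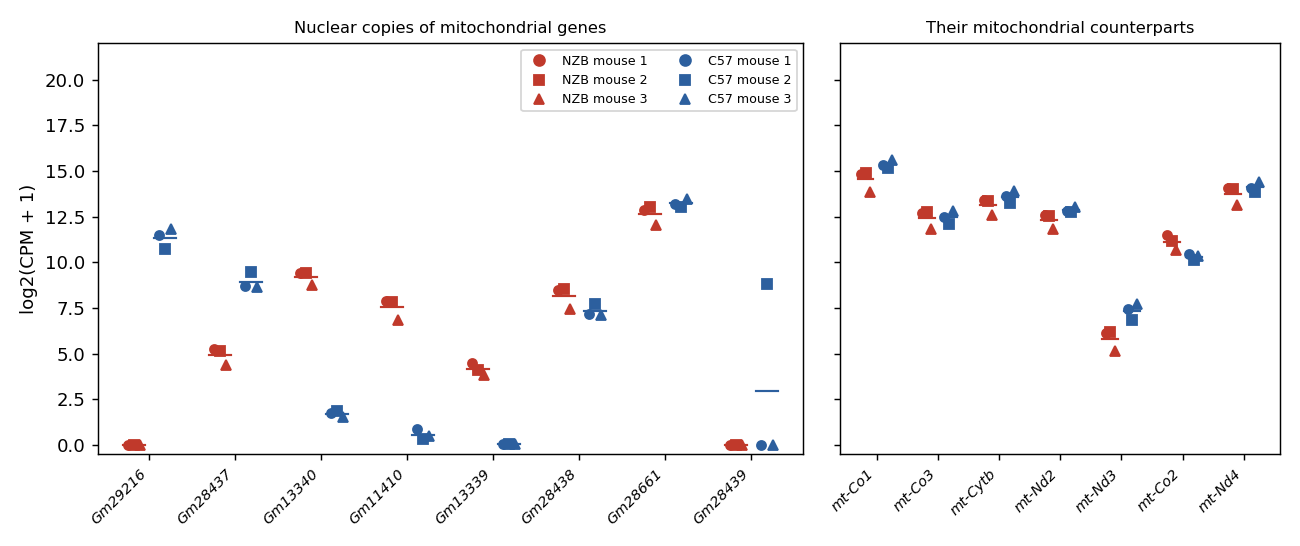
Level of 8 nuclear copies of mitochondrial genes (left) and of their mitochondrial counterparts (right) in each non-lactating gland, as log2(CPM + 1) on the vertical axis; symbols are mice, short lines are group means, red is NZB and blue is C57. Gm29216 lies at 0 in all NZB glands, and Gm13340, Gm11410 and Gm13339 lie near 0 in all C57 glands, while the mitochondrial genes differ far less.

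The mitochondrially encoded mRNAs themselves were mostly lower in NZB glands, and none passed the test. All 13 were measured, 12 had a negative difference, and the median was -0.45, against 0.08 for all genes; it was -0.51 with median-of-ratios scaling and -0.43 with milk, muscle and lymphocyte genes left out of the total. Their summed level was 102029, 100997 and 55435 CPM in NZB mice and 123163, 106995 and 146366 CPM in C57 mice. The sums did not overlap, but NZB mice 1 and 2 lay close to C57 mouse 2, and without NZB mouse 3 the median was -0.18. The largest decrease was in mt-Nd3, another complex I subunit gene, with 69.3, 71.92 and 33.86 CPM in NZB mice and 170.56, 113.41 and 208.93 CPM in C57 mice (difference -1.51 ± 0.36, SE, limma adjusted p = 0.252). In mt-Nd3 the groups did not overlap. Its copy Gm28438, identical over 342 bases, had more reads than mt-Nd3 in every NZB gland, with 362.69, 375.68 and 175.84 CPM. In C57 mice it had 144.46, 208.66 and 137.64 CPM. How reads were divided between mt-Nd3 and this copy is uncertain. With the 2 added together, NZB mice 1 and 2 lay above every C57 gland and NZB mouse 3 lay below them. The separation of the groups in mt-Nd3 therefore did not hold for the 2 together, which were not tested as a sum. The exception to the direction was mt-Co2, which had 2876.49, 2270.35 and 1608.59 CPM in NZB mice and 1396.37, 1118.36 and 1297.62 CPM in C57 mice (difference 0.79 ± 0.33, SE, limma adjusted p = 0.426). Each NZB gland was above each C57 gland in mt-Co2, the reverse of its nuclear copy Gm28661. That copy is identical over 681 bases and had more reads than mt-Co2 in every gland. How reads were divided between the 2 is uncertain. With the 2 added together the groups overlapped, so the separation in mt-Co2 did not hold for them as a sum, which was not tested. mt-Co1 had 29820.23, 31001.95 and 15087.77 CPM in NZB mice and 41498.61, 37270.43 and 49032.54 CPM in C57 mice (difference -0.81 ± 0.87, SE, limma adjusted p = 0.748).

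Most lists of nuclear genes for the mitochondrial machinery had medians near that of all genes. No gene of the lists for complex I, complexes II to V, the mitochondrial ribosome, mitochondrial DNA maintenance, mitochondrial chaperones and proteases, mitochondrial dynamics or fatty acid oxidation passed the test. Median differences were 0.16 for 36 complex I genes, 0.11 for 37 genes of complexes II to V, 0.11 for 30 genes of the mitochondrial ribosome and -0.02 for 14 genes of fusion, fission and mitophagy. The list of mitochondrial DNA maintenance and transcription had a median of 0.34, with 16 of 17 genes positive. Within it Ppargc1b, a coactivator of mitochondrial biogenesis, had 50.53, 50.21 and 52.8 CPM in NZB mice and 26.08, 21.51 and 33.71 CPM in C57 mice (difference 0.92 ± 0.22, SE, limma adjusted p = 0.252). Polg, the mitochondrial DNA polymerase, had 49.27, 55.74 and 75.27 CPM in NZB mice and 36.01, 45.35 and 32.36 CPM in C57 mice (difference 0.64 ± 0.24, SE, limma adjusted p = 0.387). In both genes the groups did not overlap, and with NZB mice 2 and 3 left out the median of the list was 0.03.

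A few single members of these lists did not overlap between the groups and had means that differed by at least 2-fold. Ndufb2, an accessory subunit of complex I, had 245.91, 296.23 and 430.69 CPM in NZB mice and 114.06, 183.44 and 93.68 CPM in C57 mice (difference 1.33 ± 0.32, SE, limma adjusted p = 0.252). It was the only complex I gene of 36 that met both conditions, 2.78% against 1.57% of all genes tested. Among 22 fatty acid oxidation genes 2 did (9.09%), Ucp3 and Cpt1b, both genes of oxidative tissue. Ucp3, an inner-membrane carrier, had 43.88, 36.04 and 23.33 CPM in NZB mice and 14.57, 9.81 and 17.19 CPM in C57 mice (difference 1.24 ± 0.31, SE, limma adjusted p = 0.252). Cpt1b, the muscle form of the enzyme that admits fatty acids to mitochondria, had 7.36, 17.96 and 12.75 CPM in NZB mice and 3.95, 4.05 and 4.88 CPM in C57 mice. Its difference was 1.30, and the liver form Cpt1a went the other way, with 53.99, 65.87 and 52.1 CPM in NZB mice and 101.56, 109.1 and 95.0 CPM in C57 mice (difference -0.82). Neither Cpt1 gene passed the test, and the groups overlapped in neither.

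Stress lists also had small medians, except that the NRF2 antioxidant targets leaned lower in NZB. The median was 0.18 for 18 mitochondrial chaperone and protease genes, 0.08 for 16 genes of the integrated stress response and -0.14 for 22 genes of the endoplasmic reticulum response. For 17 NRF2 antioxidant targets it was -0.36, with 15 genes negative, and their summed levels overlapped between the groups. Hspd1, the mitochondrial chaperonin, had 48.04, 43.06 and 37.59 CPM in NZB mice and 37.55, 30.6 and 36.89 CPM in C57 mice (difference 0.28 ± 0.20, SE). Atf4, the transcription factor at the centre of the integrated stress response, had 73.88, 81.89 and 85.0 CPM in NZB mice and 70.74, 88.16 and 69.44 CPM in C57 mice (difference 0.08 ± 0.19, SE). Atf4 values of the groups overlapped and Hspd1 values did not, and neither gene passed the test. Of 16 integrated stress response genes 3 (18.8%) were higher in NZB, without overlap and at least 2-fold by means, against 1.57% of all genes. Without NZB mouse 3 that count was 0. Sirt3, the mitochondrial deacetylase, differed by 0.32 ± 0.23 (SE) and Nnt, the proton-pumping transhydrogenase of the inner membrane, by -0.22 ± 0.17 (SE). Nnt was present at 39.79, 38.71 and 38.19 CPM in NZB mice and 46.9, 45.18 and 44.41 CPM in C57 mice, a small difference with tight groups. The list of 14 immediate early and heat shock genes had no common direction, with 7 positive and 7 negative differences and a median of 0.12. Egr1 of that list was higher in every NZB gland, with 155.87, 161.6 and 131.0 CPM in NZB mice and 101.08, 87.02 and 63.27 CPM in C57 mice. Its heat-shock genes Hspa1a and Hspa1b, which are induced by stress and by handling of tissue, were lower in every NZB gland. Hspa1b had 10.56, 21.63 and 5.59 CPM in NZB mice and 53.77, 107.49 and 49.58 CPM in C57 mice (difference -2.48 ± 0.49, SE, limma adjusted p = 0.252), and Hspa1a differed by -1.85.

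Genes that mark the mammary epithelium were lower in NZB glands, and none of them passed the test. The widest separation was in the basal and myoepithelial list, where 10 of 11 genes lay below every C57 mouse in every NZB mouse and had means at least 2-fold lower, against 3.91% of all genes tested. Its median difference was -1.77, and the count stayed at 10 whichever mouse was left out. The summed level of the list was 317, 422 and 188 CPM in NZB mice and 736, 1185 and 685 CPM in C57 mice. NZB mouse 3 was the lowest and C57 mouse 2 the highest. Krt5, a keratin of basal cells, had 3.76, 9.69 and 0.76 CPM in NZB mice and 36.9, 53.76 and 35.95 CPM in C57 mice (difference -3.25 ± 0.60, SE, limma adjusted p = 0.252). Acta2, the smooth-muscle actin of contractile cells, had 66.41, 90.12 and 26.35 CPM in NZB mice and 193.56, 305.41 and 180.49 CPM in C57 mice (difference -2.0 ± 0.45, SE, limma adjusted p = 0.252). In both genes NZB mouse 2 was the highest NZB gland and still below every C57 gland. Cnn1, another contractile gene, differed by -2.47, Trp63, the basal transcription factor, by -1.87, and Oxtr, the oxytocin receptor that triggers milk ejection, by -1.73. The member that overlapped or stayed under the 2-fold limit was Mylk, the myosin light chain kinase, at -0.52.

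Hormone-sensing luminal genes showed the same ordering of mice. All 10 tested members had negative differences with a median of -1.59, and 6 were lower in NZB without overlap and with means at least 2-fold apart, against 3.91% of all genes tested. The summed level of the list was 671, 1444 and 346 CPM in NZB mice and 2324, 5507 and 2269 CPM in C57 mice. Prlr, the prolactin receptor, had 221.13, 660.63 and 89.54 CPM in NZB mice and 1219.65, 3450.85 and 1197.62 CPM in C57 mice (difference -2.86 ± 0.74, SE, limma adjusted p = 0.264). Foxa1, a pioneer factor for the oestrogen receptor, had 35.58, 100.26 and 8.06 CPM in NZB mice and 200.68, 468.06 and 177.28 CPM in C57 mice (difference -2.99 ± 0.82, SE, limma adjusted p = 0.278). The NZB values of Foxa1 spread over more than a 10-fold range, with mouse 3 the lowest. Pgr, the progesterone receptor, had 51.57, 153.85 and 11.69 CPM in NZB mice and 166.35, 683.64 and 163.3 CPM in C57 mice (difference -2.50 ± 0.93, SE, limma adjusted p = 0.388). Its groups were close, since NZB mouse 2 lay just below C57 mice 1 and 3. Esr1, the oestrogen receptor, which stromal cells also express, differed by -0.64 and Areg, an oestrogen-induced growth factor, by -3.06 with overlap.

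The luminal secretory list was mixed. Of its 16 genes 9 (56.2%) were lower in NZB without overlap and with means at least 2-fold apart, against 3.91% of all genes, and 3 (18.8%) were higher, against 1.57%. The 3 that were higher were the milk genes Csn2, Wap and Lalba. Krt8, a keratin of luminal cells, had 9.56, 29.02 and 2.17 CPM in NZB mice and 54.7, 96.32 and 55.21 CPM in C57 mice (difference -2.75 ± 0.74, SE, limma adjusted p = 0.266). Epcam, an epithelial adhesion molecule, had 13.68, 35.88 and 5.84 CPM in NZB mice and 69.57, 170.97 and 74.0 CPM in C57 mice (difference -2.65, limma adjusted p = 0.252). In both genes C57 mouse 2 was the highest gland and NZB mouse 3 the lowest, without overlap. Aldh1a3, an enzyme gene used as a marker of luminal progenitors, had 7.62, 18.44 and 8.26 CPM in NZB mice and 53.36, 64.92 and 33.4 CPM in C57 mice (difference -2.10 ± 0.39, SE, limma adjusted p = 0.252). Ltf, the antimicrobial lactoferrin, had 22.46, 34.59 and 19.4 CPM in NZB mice and 199.03, 147.58 and 80.87 CPM in C57 mice (difference -2.39 ± 0.37, SE, limma adjusted p = 0.19). Lcn2, the iron-binding lipocalin, had 30.86, 42.3 and 17.73 CPM in NZB mice and 128.94, 195.89 and 122.32 CPM in C57 mice (difference -2.31 ± 0.34, SE, limma adjusted p = 0.166). Elf5, the factor that directs secretory fate, overlapped, with 20.86, 28.9 and 20.61 CPM in NZB mice and 26.45, 87.37 and 30.56 CPM in C57 mice. With C57 mouse 2, which had the highest sum of the basal and hormone-sensing lists, left out, the medians were -1.49 for the basal list, -1.57 for the hormone-sensing list and -0.93 for the luminal secretory list.

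**Figure D2:**
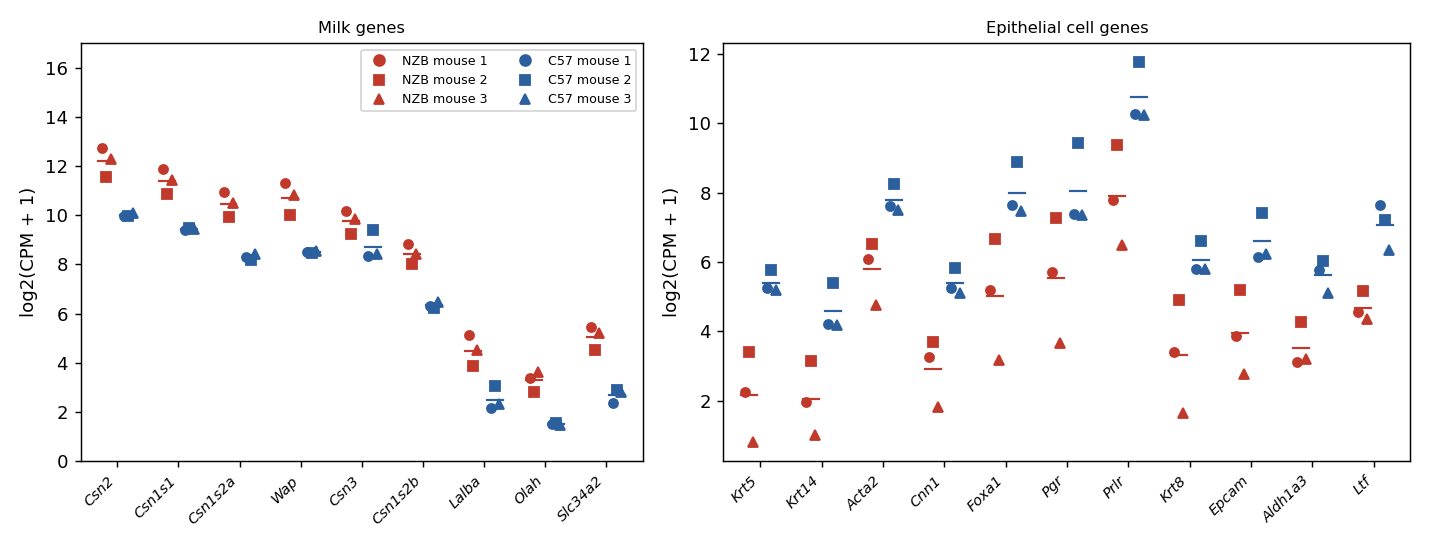
Level of 9 milk genes (left) and 11 genes of epithelial cells (right) in each non-lactating gland, as log2(CPM + 1); symbols are mice, short lines are group means, red is NZB and blue is C57. NZB glands are above C57 glands in 8 of the 9 milk genes (Csn3 overlaps) and below them in all 11 epithelial genes.

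Several genes with the smallest p among those lower in NZB were named by rule although they missed the threshold, and they are in none of the cell type lists. Slc15a2, a carrier of small peptides, had 2.71, 3.92 and 3.38 CPM in NZB mice and 37.66, 79.49 and 27.23 CPM in C57 mice (difference -3.37 ± 0.40, SE, limma adjusted p = 0.0746). Sfrp5, a secreted WNT inhibitor, had 3.38, 3.55 and 2.72 CPM in NZB mice and 26.56, 25.36 and 14.42 CPM in C57 mice (difference -2.41 ± 0.30, SE, limma adjusted p = 0.0984). Within NZB these genes were tight, unlike the keratins, and NZB mouse 3 did not stand out. BB114814, a gene model without an assigned function, differed by -4.64 ± 0.54 (SE, limma adjusted p = 0.074), with 0.15, 1.66 and 0.4 CPM in NZB mice and 55.45, 62.04 and 17.63 CPM in C57 mice. The others were Serf1, Capsl, Syt17, a synaptotagmin, and Wisp2, a matricellular WNT target, with differences of -1.81, -2.37, -1.96 and -1.94. All of these were low-level genes with C57 values between 3.84 and 12.93 CPM.

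Most caseins, Wap and Lalba went the other way and were higher in NZB glands, also without passing the test, while the milk protein list as a whole was split. Of its 17 tested members 9 had a positive difference and 8 a negative one, and the median was 1.03. By the count without overlap and with means at least 2-fold apart 8 were higher in NZB (47.1%), against 1.57% of all genes, and 2 (Ltf and Lcn2, above) were lower (11.8%), against 3.91%. The 19 measured genes made up 1.73%, 0.84% and 1.34% of all counts in NZB mice 1, 2 and 3, and 0.35%, 0.41% and 0.34% in C57 mice 1, 2 and 3. Csn2, beta-casein, had 6867.23, 3055.91 and 5046.5 CPM in NZB mice and 1001.42, 1013.37 and 1083.67 CPM in C57 mice (difference 2.20 ± 0.38, SE, limma adjusted p = 0.226). Wap, whey acidic protein, had 2538.95, 1030.29 and 1833.74 CPM in NZB mice and 365.14, 352.74 and 371.97 CPM in C57 mice (difference 2.21 ± 0.35, SE, limma adjusted p = 0.191). The C57 glands were within a few percent of each other in both genes, and the NZB glands were ordered mouse 1, mouse 3, mouse 2. Csn1s2b, another casein, had the smallest adjusted p of the list, 0.074, with 450.66, 261.46 and 344.38 CPM in NZB mice and 78.81, 73.66 and 88.86 CPM in C57 mice (difference 2.09 ± 0.24, SE). Csn3, kappa-casein, which overlapped, had 1164.62, 611.46 and 914.13 CPM in NZB mice and 323.36, 681.35 and 344.39 CPM in C57 mice. The fill genes higher in NZB were milk or lactation genes as well: Lao1, an amino acid oxidase of milk (2.29), Slc34a2, a phosphate carrier (2.37), Olah, which ends medium-chain fatty acid synthesis (1.78), and Csn1s2a, a casein (2.14). Ngfr, a nerve growth factor receptor (1.77), and Rhof, a small GTPase (1.87), were the others.

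In each mouse 5 abundant milk genes, picked by hand, stood at similar shares of their level in lactating glands of the same genotype. The choice left out Csn3, which averaged 54989 CPM in NZB glands of day 8, above Csn1s2b. In C57 mice 1, 2 and 3 Csn3 stood above those shares, at 0.55%, 1.17% and 0.59%. The similar shares therefore hold for the picked genes and not for abundant milk genes in general. For Csn2, Csn1s1, Csn1s2a, Csn1s2b and Wap, the level in NZB mouse 1 was 1.96% to 2.82% of the mean of the NZB glands of day 8, in NZB mouse 2 it was 1.12% to 1.14%, and in NZB mouse 3 it was 1.5% to 2.04%. In C57 mice 1, 2 and 3 it was 0.32% to 0.43%, 0.3% to 0.46% and 0.36% to 0.45% of the C57 mean of day 8. These 5 genes span more than a 10-fold range of level on day 8, with 271153 CPM for Csn2 and 23026 CPM for Csn1s2b in NZB glands. Other milk genes departed from these shares: Csn3 and Lalba were at 1.17% and 1.05% in C57 mouse 2, Lalba was at 4.2% in NZB mouse 1, and Glycam1, a mucin-like protein of milk and of lymph node vessels, was at 1.0%, 1.57% and 4.97% in NZB mice and 0.31%, 0.22% and 0.3% in C57 mice. Ltf was at 4.0%, 6.16% and 3.45% in NZB mice and 56.6%, 41.97% and 23.0% in C57 mice. Some lactation genes that do not encode milk proteins lay near the casein shares, such as Slc34a2 with 2.42%, 1.23% and 2.05% in NZB mice and 0.27%, 0.42% and 0.39% in C57 mice. Mfge8, a protein of milk fat globules, was at 20.79%, 22.25% and 23.75% in NZB mice and 21.17%, 33.28% and 16.39% in C57 mice. Whether reads of lactating libraries entered these libraries was not tested.

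**Figure D3:**
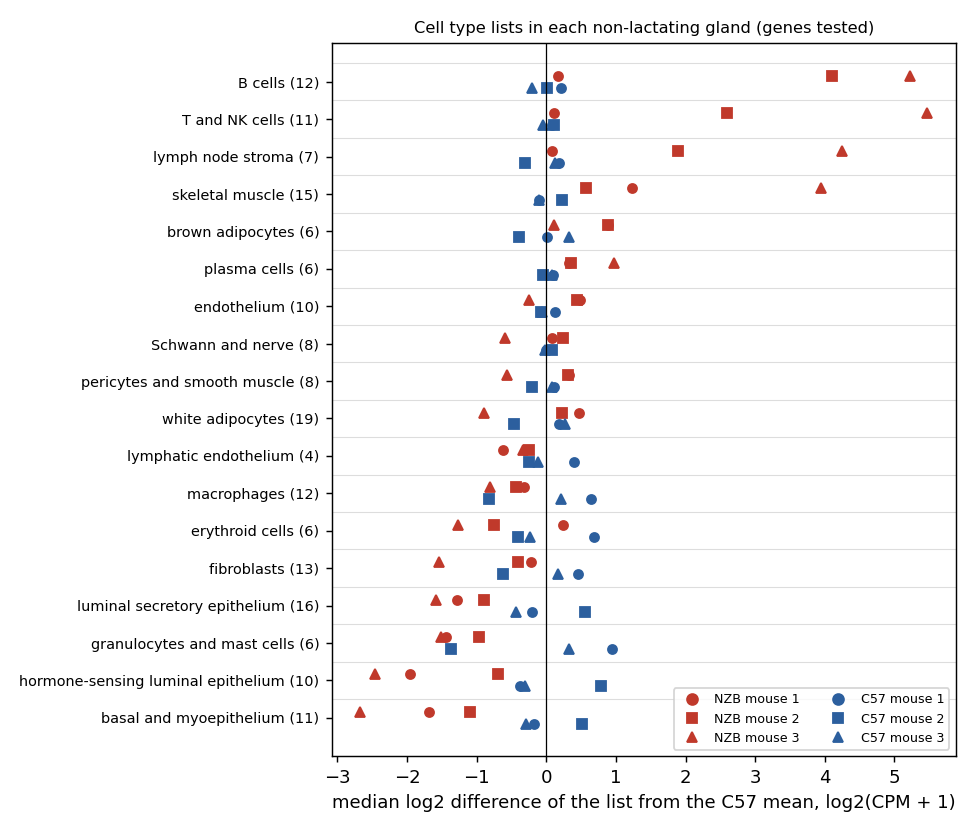
Median log2 difference of the tested genes of 18 cell type lists from the C57 mean (horizontal axis, log2(CPM + 1) scale) in each non-lactating gland; red symbols are NZB mice, blue symbols are C57 mice, and the number of genes is in parentheses. B cell and T cell lists stand out in NZB mice 2 and 3 only, muscle in NZB mouse 3 most, and all NZB mice lie below all C57 mice in the 3 epithelial lists.

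Lymphocyte genes were high in some NZB glands and at C57 levels in the first. The summed level of 13 B cell genes was 53, 1105 and 2408 CPM in NZB mice 1, 2 and 3 and 53, 50 and 38 CPM in C57 mice 1, 2 and 3. T and NK cell genes summed to 37, 328 and 2124 CPM in NZB mice and 37, 41 and 35 CPM in C57 mice. Lymph node stroma genes summed to 365, 551 and 1345 CPM in NZB mice and 270, 250 and 257 CPM in C57 mice. No member of these lists passed the test. NZB mouse 1 lay within the C57 range in the B cell and T and NK cell sums and above it in the lymph node stroma sum. That sum includes Glycam1, also a milk gene, with 138.24 CPM in NZB mouse 1 and 39.54, 28.26 and 38.25 CPM in C57 mice. The median difference of the stroma list from the C57 mean was 0.08 in NZB mouse 1, so its genes as a set lay near the C57 level there. Cd3e, a chain of the T cell receptor complex, had 2.16, 33.1 and 261.85 CPM in NZB mice and 3.92, 2.33 and 3.18 CPM in C57 mice. Pax5, the factor that commits B cells, had 2.12, 161.89 and 363.17 CPM in NZB mice and 2.85, 0.44 and 0.85 CPM in C57 mice, and Ccl21a, a chemokine of lymph node stroma, had 0.67, 42.98 and 233.33 CPM in NZB mice and 1.65, 0.25 and 0.19 CPM in C57 mice. Without NZB mouse 1 the test called 12 of 12 B cell genes and 8 of 11 T and NK cell genes higher, against 1.96% of all genes in that fit, and with NZB mice 2 and 3 left out no member of either list met the conditions of no overlap and 2-fold. NZB mouse 1 was the gland at C57 levels of these genes, so the calls without it follow from which mouse is left out and are no test of the genotypes. Some tested members, such as the chemokine receptor Ccr7, passed the filter on low values through NZB glands alone. Median differences were 3.17 for B cells and 2.67 for T and NK cells over all mice, and 0.17 and 0.11 with NZB mice 2 and 3 left out. Cell cycle genes, which proliferating lymphocytes also express, had a median of 0.50 with all 18 positive, and the median was -0.09 with those mice left out.

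The antibody gene among the 6 did not follow the B cell genes. Ighg2c, the constant region of the IgG2c heavy chain (chr12:113285325-113288932, minus strand), had 21.27, 16.87 and 16.53 CPM in NZB mice 1, 2 and 3 and 0.07, 0 and 0.19 CPM in C57 mice. It rose by 4.14 (SE 0.25; limma adjusted p = 0.00124), it was called under every alternative in which it was tested, and it was named after its values were seen. NZB mouse 1, whose B cell genes were at the C57 level, had the highest value. Genes of plasma cells, which secrete antibody, were mixed: Irf4, a factor of plasma cells and of adipocytes, had 110.02, 195.75 and 143.24 CPM in NZB mice and 27.24, 5.01 and 41.05 CPM in C57 mice (difference 2.93 ± 0.67, SE, limma adjusted p = 0.252). Jchain, which joins antibodies into polymers, had 15.69, 24.42 and 47.01 CPM in NZB mice and 7.8, 5.55 and 5.79 CPM in C57 mice (difference 1.90 ± 0.40, SE, limma adjusted p = 0.252). All NZB glands exceeded all C57 glands in both. Sdc1, a proteoglycan of plasma cells that epithelium also carries, was lower, at -1.15.

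Skeletal muscle genes were higher in NZB glands and above all in NZB mouse 3. The summed level of 21 genes was 373, 148 and 3493 CPM in NZB mice 1, 2 and 3 and 54, 71 and 46 CPM in C57 mice 1, 2 and 3, without overlap. Of 15 tested genes 10 (66.7%) were higher without overlap and with means at least 2-fold apart, against 1.57% of all genes, and 5 were without NZB mouse 3. Ttn, the giant sarcomere protein, had 198.67, 85.24 and 2175.85 CPM in NZB mice and 10.55, 13.79 and 10.76 CPM in C57 mice (difference 4.73 ± 1.04, SE, limma adjusted p = 0.252). Myh4, a fast myosin heavy chain, had 26.7, 3.71 and 159.92 CPM in NZB mice and 1.17, 0.4 and 1.73 CPM in C57 mice (difference 3.77 ± 1.12, SE, limma adjusted p = 0.311). Acta1, the actin of muscle fibres, overlapped, with 16.21, 5 and 108.98 CPM in NZB mice and 5.88, 11.47 and 3.62 CPM in C57 mice.

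**Figure D4:**
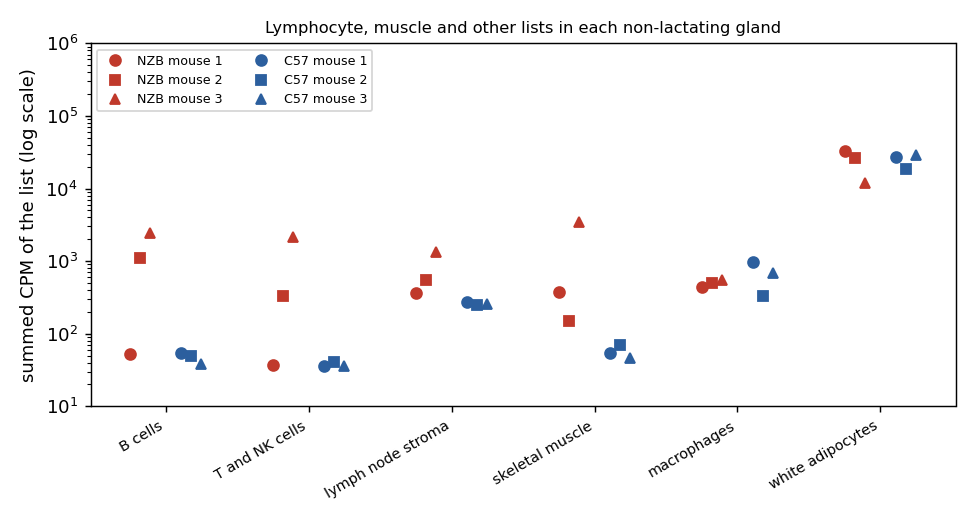
Summed CPM (log axis) of the genes of 6 cell type lists in each non-lactating gland; symbols are mice, red is NZB and blue is C57. NZB mouse 3 has the highest lymphocyte and muscle sums and the lowest adipocyte sum, while NZB mouse 1 lies at the C57 level for B cells and T cells.

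Fat and vessel lists had sums that overlapped between the genotypes, fibroblast genes leaned lower in NZB, and NZB mouse 3 was low in fat and stroma. Endothelial genes summed to 1182, 1021 and 794 CPM in NZB mice and 831, 757 and 772 CPM in C57 mice, with a median of 0.29 over 10 genes. White adipocyte genes summed to 32836, 26296 and 12000 CPM in NZB mice and 26914, 18460 and 28688 CPM in C57 mice, with a median of -0.08 over 19 genes. Adipoq, the fat hormone adiponectin, had 843.49, 675.43 and 290.16 CPM in NZB mice and 982.72, 460.92 and 957.6 CPM in C57 mice. Lep, leptin, was lower in every NZB gland, with 262.81, 204.79 and 83.03 CPM in NZB mice and 326.11, 379.86 and 358.5 CPM in C57 mice (difference -1.10 ± 0.41, SE, limma adjusted p = 0.388). Cidea, a lipid-droplet gene of brown and lactating tissue, was higher in every NZB gland, with 15.1, 19.53 and 9.22 CPM in NZB mice and 2.95, 0.55 and 7.33 CPM in C57 mice (difference 2.02 ± 0.60, SE, limma adjusted p = 0.311). Fibroblast genes summed to 11824, 8685 and 3399 CPM in NZB mice and 11634, 5843 and 9538 CPM in C57 mice, which overlap. All 13 fibroblast genes had negative differences, with a median of -0.65, and 2 of them (15.4%) were lower without overlap and with means at least 2-fold apart, against 3.91% of all genes. Dcn, the proteoglycan decorin, had 321.93, 306.54 and 124.0 CPM in NZB mice and 813.56, 455.52 and 730.06 CPM in C57 mice (difference -1.48 ± 0.42, SE, limma adjusted p = 0.298). Macrophage genes had a median of -0.42 and C57 mouse 2 was the lowest gland of either group, at 336 CPM. Mcpt4, a mast cell protease, was low in all NZB glands and in C57 mouse 2, with 1.75, 2.5 and 0.96 CPM in NZB mice and 16.7, 1.17 and 7.96 CPM in C57 mice. Kit, in the mast cell and luminal secretory lists, was instead highest in C57 mouse 2. It had 51.5, 82.54 and 30.68 CPM in NZB mice and 119.29, 291.48 and 112.41 CPM in C57 mice. The part of these cell type levels in the epithelial, milk and mitochondrial values above was not tested.

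Srp54a, Fam177a and Srp54b, neighbours on chromosome 12, were higher in every NZB gland without passing the test. Srp54a (chr12:55080262-55115367, plus strand), which encodes the signal recognition particle subunit that guides secreted proteins, had 17.55, 24.7 and 10.22 CPM in NZB mice and 3.61, 2.14 and 8.22 CPM in C57 mice (difference 1.78 ± 0.47, SE, limma adjusted p = 0.266). Fam177a (chr12:55124469-55142104, plus strand), whose role is not settled, had 71.17, 66.23 and 107.32 CPM in NZB mice and 29.92, 42.08 and 29.02 CPM in C57 mice (difference 1.24 ± 0.26, SE, limma adjusted p = 0.252). Srp54b (chr12:55155104-55189573, plus strand) had 114.48, 117.81 and 122.69 CPM in NZB mice and 68.99, 82.68 and 67.14 CPM in C57 mice (difference 0.70 ± 0.18, SE, limma adjusted p = 0.257). In each of the 3 the lowest NZB gland was above the highest C57 gland. Srp54a and Srp54b are near-identical copies, so their separate levels are uncertain. The other 11 tested genes of the block had differences between -0.54 and 0.88.

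Lactating glands, which are other mice, showed which of these differences were also present at another stage. On days 8 and 14, 12738 genes were tested in 12 samples, and 14 passed the test (0.11%), 11 higher in NZB (0.0864%) and 3 lower (0.0236%). All 5 nuclear copies called before lactation were among them in the same direction, with differences of -8.70 for Gm29216, -1.67 for Gm28437, 6.29 for Gm13340, 5.43 for Gm11410 and 2.23 for Gm13339. Gm29216 was at 0 CPM in all 6 NZB glands and between 267.9 and 576.54 CPM in the 6 C57 glands, with a median of 458.69. Srp54a (1.79, limma adjusted p = 9.73e-05), Fam177a (1.31, limma adjusted p = 0.000788) and Srp54b (0.89, limma adjusted p = 0.00661) rose there, and mt-Nd3 fell by 1.27 (limma adjusted p = 0.00128). For these 4 genes the difference before lactation was 1.78, 1.24, 0.70 and -1.51. The division of reads between mt-Nd3 and its copy Gm28438 is uncertain at both stages. Ighg2c did not pass there, with a difference of 0.60, and ranged from 0.95 to 15.86 CPM in 6 NZB glands, median 2.9, and from 0.91 to 2.71 CPM in 6 C57 glands, median 2.02.

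Epithelial and milk genes had differences near 0 in lactating glands. Krt5 differed by -3.25 before lactation and by -0.17 on days 8 and 14, when it ranged from 5.87 to 11.19 CPM in NZB glands, median 7.48, and from 7.33 to 11.62 CPM in C57 glands, median 8.4. Csn2 differed by 2.20 before lactation and by -0.08 on days 8 and 14. Among 175 named genes tested at both stages, 6 passed before lactation, 4 on days 8 and 14 alone, and 165 in neither. The largest difference on days 8 and 14 among those 165 was 1.32 in size. A limma interaction across 15797 genes called 250 (1.58%) whose genotype difference changed between the stages, 40 more positive (0.253%) and 210 more negative (1.33%) before lactation. Of 37 epithelial genes tested 14 were among the more negative. With the spread estimated separately in each stage, a setting added after seeing the data, 2 genes were called, Gm29216 (-2.66 ± 0.34, SE, limma adjusted p = 0.0185) and Ighg2c (3.54 ± 0.37, SE, limma adjusted p = 3.49e-05). Without NZB mouse 1 the counts were 637 more positive and 298 more negative, without NZB mouse 3 they were 34 and 110, and without C57 mouse 1, 2 or 3 they were 17 and 104, 13 and 71, and 20 and 118. Of the 250 genes, 134 averaged under 5 CPM in lactating glands, where milk transcripts fill most of the library.

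**Figure D5:**
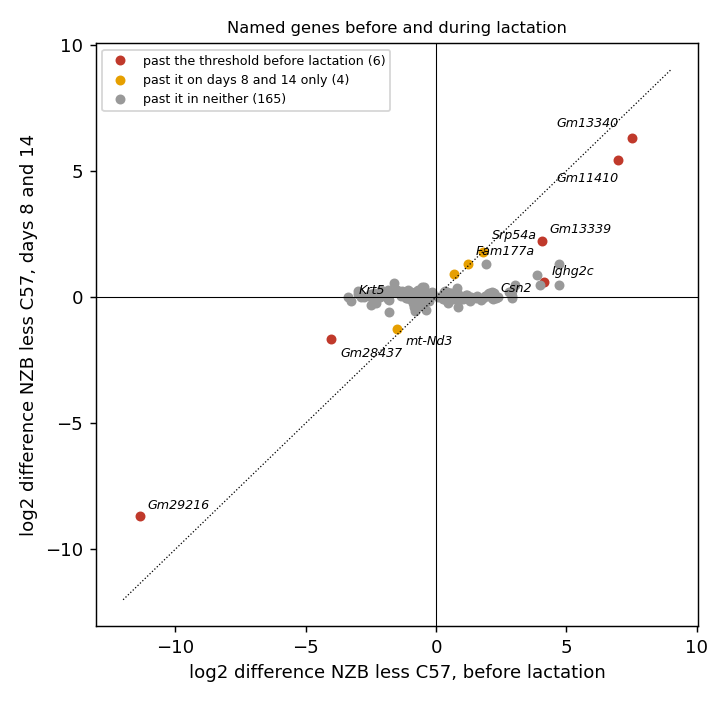
Log2 difference NZB less C57 of 175 named genes before lactation (horizontal axis) and on days 8 and 14 (vertical axis), with the dotted line of equality; red points passed the threshold before lactation, orange points on days 8 and 14 alone, grey points in neither. Nuclear copies of mitochondrial genes and the chromosome 12 genes keep their sign at both stages, whereas the epithelial and milk genes lie near 0 on the vertical axis.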

How the data were processed

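The deposited table holds 32544 gene symbols and 48 columns, 2 read-file columns for each of 24 samples. The authors deposited values on a log10 scale, log10 of counts per 1000000 reads (CPM) plus 1, as read from the values: each column sums to 1000000 CPM once the log10 is undone. The tests had been planned for log2 CPM, so values were converted to log2(CPM + 1). The labels give polyadenylated RNA from snap-frozen glands, and the submitters' processing notes name the builds GRCm38 and mm10; which aligner and counter were used is not given in the sources used here. Whole reads were recovered from the deposited values within a tolerance of 0.05. The mean CPM of the paired columns of a mouse served as its single value. Symbols changed to dates (27) stayed in the totals and are not named.

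Genes with CPM above 1 in at least 3 of the 6 non-lactating samples were tested with limma (lmFit, eBayes with a variance trend), 2-sided, with Benjamini-Hochberg adjustment over all genes tested and a threshold of 0.05. The same test was run on the 12 samples of days 8 and 14 and, as an interaction with weights per stage, on 18 samples. The scripts were tested on simulated data. The labels say that 3 mice per group were used and nothing of litters or days; p-values measure the spread between these mice. Replicate numbers in the titles did not pair mice (shown with the alternatives).

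The genotype groups, gene lists, tests and names were chosen with earlier results of these data known. Named genes are up to 15 called genes a direction with no overlap and a mean of at least 3 CPM, filled up to 10 with genes of smallest p; up to 4 members of a described list with the smallest p; and a fixed set. Not every gene that the rule names is described. Unnamed models, immunoglobulin segments and pseudogenes outside the lists were left out. Other genes were named from list membership. The values of a further member of the B cell list are not reported here. Gm11410 and Ighg2c lie outside the rule. Positions and sequences are from GENCODE mouse release M21 (GRCm38), in which 15057 of 15524 tested symbols were found once. Reads of PCR copies are not independent molecules, so floors cover counting error only. The tools were limma 3.58.1 in R 4.3.3 for the tests, and Python 3.11.15 for the summaries (biopython 1.88, pandas 2.3.3, numpy 2.4.6) and the plots (matplotlib 3.10.9).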

Additional observations from a re-analysis of the deposited data

Results flagged for a closer look

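The genotype difference of 28 genes named above changed between stages by the limma interaction, and values here are the difference before lactation less that on days 8 and 14 on the log2 scale. Among epithelial and stromal genes it was -3.08 for Krt5, -2.21 for Acta2, -2.46 for Cnn1, -1.69 for Oxtr, -2.75 for Krt8, -2.71 for Epcam, -2.39 for Aldh1a3, -3.09 for Foxa1, -2.85 for Prlr and -1.66 for Dcn, and for the peptide carrier Slc15a2 it was -3.38. These genes were lower in NZB before lactation and near equal on days 8 and 14.

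Among milk and lactation genes it was 2.27 for Csn2, 1.89 for Csn1s1, 2.10 for Csn1s2a, 1.94 for Csn1s2b, 2.06 for Wap, 1.88 for Lalba, 2.99 for Glycam1, 2.34 for Lao1, 1.81 for Olah, 2.36 for Slc34a2 and 1.87 for Cidea, and for the small GTPase Rhof it was 1.83. For the nuclear copies it was -2.66 for Gm29216, -2.35 for Gm28437, 1.54 for Gm11410 and 1.86 for Gm13339, which kept their sign in lactating glands at a smaller size. Milk transcripts fill most of a lactating library, and log2(CPM + 1) understates the difference of a gene at low CPM; the part of either in these values was not tested. For Ighg2c it was 3.54.

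With the spread estimated separately in each stage, Gm29216 and Ighg2c alone passed the threshold among these 28, and the adjusted p of the other 26 lay between 0.0501 and 0.353. Groups of 3 mice were not screened for outlying samples.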

How the results depend on the processing

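With 3 mice a group, the counts of called genes depended on how the spread was estimated. Against 4 genes higher and 2 lower in NZB, the fit of all 24 samples called 481 and 718, weights per sample called 5444 and 2333 with a weight of 240.62 on NZB mouse 2 and at most 1.42 on any other, and leaving out NZB mice 2 and 3 together, whose lone NZB mouse is assumed to vary like the C57 mice, called 9 and 3. The F numbers shared by the groups did not pair the mice, with correlations of 0.13, 0.05 and -0.18 between same-numbered mice, and with them as a replicate block 9 genes were called higher and 129 lower. Leaving out each mouse gave 4 to 304 higher and 1 to 26 lower. The 6 called genes stayed called under each alternative, except Gm28437 without C57 mouse 1 or 2 and Ighg2c where antibody genes were left out of the test. Their number also called on days 8 and 14, 5, did not move. The interaction, with 40 more positive and 210 more negative, gave 9 more positive with milk genes left out of the total, 18 and 131 at a mean of at least 5 CPM, 23 and 125 with the replicate block, 1 and 1 with separate spreads, and 13 to 637 and 71 to 298 without each mouse. Genes without overlap numbered 195 to 1158 higher and 510 to 833 lower without each mouse. Of 82 genes followed under 19 alternatives, the difference changed sign in 9 of 1538 values, none under another scaling: with NZB mice 2 and 3 left out in Adipoq (0.16), Atf4 (-0.03), Cd3e (-0.37) and mt-Co3 (0.25), with sample weights in Mfge8 (0.02) and mt-Co3 (0.13), and without single mice in Mfge8 (range -0.43 to 0.08) and mt-Co3 (range -0.23 to 0.26, 0.12 without C57 mouse 3). The cause was not tested. Another scaling moved the median of all genes from 0.08 to 0.02 or 0.10.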

Other observations

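Several other antibody genes were highest in NZB mouse 3, the gland with the highest lymphocyte sums; these values were not tested. Ighd, expressed with Ighm on naive B cells, had 2.68, 306.01 and 686.59 CPM in NZB mice 1, 2 and 3 and 7.15, 1.68 and 2.96 CPM in C57 mice 1, 2 and 3. Ighm had 71.36, 447.93 and 969.35 CPM in NZB mice and 129.59, 290.12 and 114.14 CPM in C57 mice, which overlap. Igha, the heavy chain of the class found in milk, was higher in every NZB gland, with 60.46, 142.27 and 256.91 CPM in NZB mice and 19.58, 6.8 and 10.07 CPM in C57 mice. Ighg2b had 0.63, 3.03 and 39.96 CPM in NZB mice and 2.13, 0.44 and 0.13 CPM in C57 mice, so that NZB mouse 1 lay within the C57 range for this class and far above it for Ighg2c. The light chain gene Igkc had 34.51, 123.1 and 280.84 CPM in NZB mice and 19.79, 4.05 and 19.52 CPM in C57 mice.

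Interferon-stimulated genes had a median difference of 0.38 over 20 genes, collagen and matrix genes -0.40 over 22 and circadian clock genes -0.17 over 15, and none of their members passed the test. Erdr1, a gene at the end of the sex chromosomes that is hard to assemble, was higher in every NZB gland, with 30.94, 45.65 and 92.3 CPM in NZB mice and 7.69, 19.15 and 4 CPM in C57 mice. On days 8 and 14 it ranged from 8.7 to 15.68 CPM in NZB glands and from 2.77 to 11.46 CPM in C57 glands.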
